A study of Mus with 2 samples.

Results

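The genes that write and erase N6-methyladenosine (m6A) on RNA were followed across the nuclei of interscapular brown adipose tissue (iBAT). They were *Wtap*, *Mettl3*, *Mettl14*, *Virma*, *Zc3h13*, *Cbll1*, *Rbm15*, *Rbm15b*, *Fto* and *Alkbh5*, 10 of the 32285 genes listed in the files, taken by name and not by their values. All 10 had unique molecular identifiers (UMIs, each standing for 1 captured RNA molecule) in both libraries, summing to 6574 UMIs in controls and 8213 UMIs under the label *Wtap*-BKO.

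m6A is a methyl mark on adenosines of mRNA. A catalytic pair, METTL3 with METTL14, places it inside the nucleus, held in place by a regulatory complex that is built around WTAP. FTO and ALKBH5 are demethylases that take the methyl group off again, and m6A affects splicing, decay and translation of the marked mRNA.

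Single-nucleus RNA sequencing (snRNA-seq) with a droplet-based 3′ kit measured nuclei of frozen iBAT from C57BL/6 mice on chow at the age of 8 weeks. The control library came from *Wtap* flox/flox mice, in which loxP sites flank an exon of *Wtap* and which carry no Cre. The other library came from *Wtap*-BKO mice (Wtap flox/flox UCP1-iCre), which have the same floxed alleles and an IRES-Cre inserted in the *Ucp1* locus, so that Cre is made where *Ucp1* is, in brown adipocytes. Each library pooled 4 mice that cannot be separated, so there was 1 library per genotype, no replicate and no test between genotypes. Below, a pair of values gives the control library before the library labelled *Wtap*-BKO. The 95% intervals reflect counting error alone. They do not include differences among mice or library preparations.

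The control library held 9494 nuclei with a median of 954 UMIs. There were 8772 nuclei with a median of 1306 UMIs in the library labelled *Wtap*-BKO. Mitochondrially encoded genes took 7.60% and 11.7% of the UMIs, and 33.0% and 74.8% of nuclei had more than 5% of such UMIs. The libraries shared 20 cell barcodes. Clusters were named "X-like" from marker genes. Adipocyte-like nuclei numbered 6752 and 4940, and the 12 adipocyte markers summed to 12621 and 16266 UMIs per 1000000 UMIs (CPM) in them. Non-adipocyte nuclei, which are the endothelial-, macrophage-, T-cell-, fibroblast-, pericyte-, B-cell- and Schwann-like nuclei together, numbered 2327 and 3475, and 1 cluster rich in mitochondrial UMIs stayed unnamed, with 415 and 357 nuclei. All 12 adipocyte markers also had UMIs in every class of at least 100 nuclei per library. Their median level was 50.7% and 28.8% of the adipocyte-like level in macrophage-like nuclei and 64.6% and 37.1% in T-cell-like nuclei, classes that should lack them. In turn, adipocyte-like nuclei held a summed marker level of 77.5 and 166 CPM for macrophages, 17.5 and 63.6 for T cells, 90.1 and 194 for fibroblasts, 145 and 89.2 for endothelial cells and 177 and 271 for pericytes, with UMIs of every marker of these lists. The part of such foreign RNA in the results below was not tested.

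Across the 6 classes with at least 100 nuclei in each library, the writers and erasers were present everywhere, at low levels. In adipocyte-like nuclei the 10 genes summed to a CPM of 663 and 575. The lowest sum was 432, in endothelial-like nuclei of the control library, and the highest was 767, in fibroblast-like nuclei of the library labelled *Wtap*-BKO. No class lacked the set, and *Mettl14* in fibroblast-like control nuclei was the only member at 0 UMIs among these classes. No class of nuclei is known to lack these genes, so no background level could be set from the data.

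**Figure D1:**
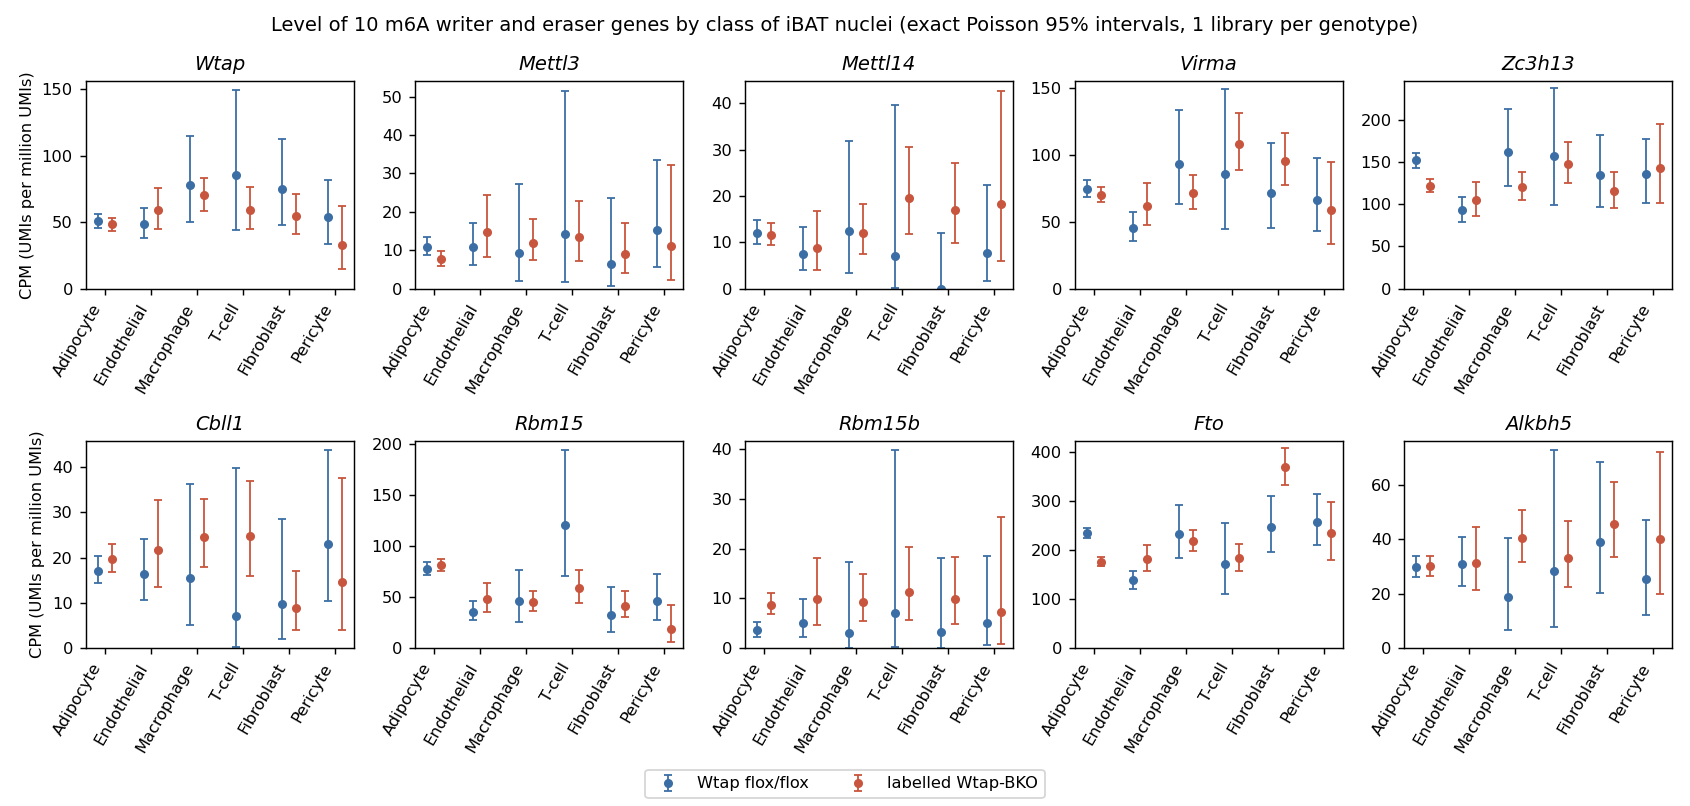
Level of each of the 10 genes in CPM (vertical axis, linear) in 6 classes of nuclei (horizontal axis) for the control library (blue) and the library labelled *Wtap*-BKO (red). Points are the CPM of summed UMIs and bars are exact Poisson 95% intervals. The bars of the small classes are wide, and those of *Wtap* overlap between the libraries in every class.

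Levels of different genes are compared per kilobase of gene span. On this scale *Rbm15* and *Zc3h13* had the highest levels in adipocyte-like nuclei. *Rbm15* stood at 2.68 and 2.81 CPM per kilobase, and *Zc3h13* at 2.53 and 2.02. *Wtap* came next with 1.96 and 1.88. The catalytic pair had 0.786 and 0.552 for *Mettl3* and 0.677 and 0.657 for *Mettl14*. *Fto*, which spans 355 kilobases, had 0.661 and 0.497. Whether intronic reads were counted is not given in the sources used here, so the span may not be the length that was sampled.

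The catalytic pair was examined first. *Mettl3* (ENSMUSG00000022160, chromosome 14, 52294841 to 52308741, GRCm38.p6), which encodes the subunit that transfers the methyl group, had 83 and 64 UMIs in adipocyte-like nuclei, a CPM of 10.9 and 7.67. On the log2 scale, the ratio of the second CPM to the first was -0.51 (-1.004 to -0.02), so the interval ended just below 0. All ratios between the libraries below are of this kind, and a negative one means a lower level in the library labelled *Wtap*-BKO. *Mettl14* (ENSMUSG00000028114, chromosome 3, 123368295 to 123385990), whose product binds RNA beside METTL3, had 91 and 97 UMIs and a CPM of 11.97 and 11.6, and its ratio was -0.04 (-0.47 to 0.39). The libraries were thus close for *Mettl14* and apart for *Mettl3* by little more than counting error, and *Mettl3* stood at 0.07 (-0.71 to 0.80) without nuclei of over 5% mitochondrial UMIs. In non-adipocyte nuclei, *Mettl3* had 30 and 63 UMIs at 0.18 (-0.47 to 0.86), whereas *Mettl14* had 20 and 72 UMIs, a CPM of 7.17 and 13.9, at 0.95 (0.22 to 1.75), which was 0.24 (-0.17 to 0.66) with classes set from each nucleus alone. *Mettl14* lay at a higher CPM in the library labelled *Wtap*-BKO in endothelial-, T-cell-, fibroblast- and pericyte-like nuclei, and at 12.4 and 11.99 in macrophage-like nuclei. It had 12 and 9 UMIs in endothelial-, 1 and 19 in T-cell- and 3 and 5 in pericyte-like nuclei, and each of these intervals covered 0. In fibroblast-like nuclei *Mettl14* had 0 and 17 UMIs, a ratio of 0.79 with the 0 set to 3 UMIs. The interval, taken from the counts themselves, started at 0.33.

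UMIs of the pair were few outside adipocyte-like nuclei. *Mettl3* had from 2 to 22 UMIs per library in each of the other 5 classes, and every one of its intervals there covered 0. Its span overlaps *Tox4*, a chromatin protein gene with 256 and 358 UMIs in adipocyte-like nuclei and a ratio of 0.35 (0.11 to 0.59). The strand setting of the counting is not given in the sources used here, so reads of overlapping genes may not be fully apart, and the same holds for *Zc3h13*, *Cbll1*, *Rbm15*, *Rbm15b* and *Fto*, each of which overlaps another gene.

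Next, the targeted gene and its partners in the regulatory complex were compared. *Wtap* (ENSMUSG00000060475, chromosome 17, 12966799 to 12992543) encodes the protein that anchors METTL3 and METTL14 in nuclear speckles. In adipocyte-like nuclei it had 384 and 403 UMIs, a CPM of 50.5 (45.6 to 55.8) and 48.3 (43.7 to 53.2), and a ratio of -0.07 (-0.27 to 0.14). No drop of *Wtap* mRNA was thus detectable at this depth, and the interval leaves room for a ratio down to -0.27. UMIs of a 3′ kit that fall outside the deleted exon check nothing about the deletion, and the labels are taken as given.

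Across classes, *Wtap* showed no difference beyond counting error between the libraries. Endothelial-like nuclei had a CPM of 48.5 and 59.1, and the level was 77.8 and 70.3 in macrophage-like and 85.6 and 58.8 in T-cell-like nuclei. It was 75.1 and 54.7 in fibroblast-like and 53.7 and 32.9 in pericyte-like nuclei, where the 21 and 9 UMIs gave a ratio of -0.70 (-2.02 to 0.48). Every one of these 6 ratios had an interval that covered 0. Ordered by level, the control library ran T-cell-, macrophage-, fibroblast-, pericyte-, adipocyte- and endothelial-like, and the library labelled *Wtap*-BKO ran macrophage-, endothelial-, T-cell-, fibroblast-, adipocyte- and pericyte-like. No neighbours in either order differed beyond their counting intervals. In macrophage-like nuclei the level over adipocyte-like nuclei was 0.62 (-0.02 to 1.21) and 0.54 (0.25 to 0.83) on the log2 scale, and only the latter interval lay off 0.

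Of the other complex members, *Virma*, *Cbll1* and *Rbm15* had adipocyte ratios whose intervals covered 0, *Zc3h13* lay below 0 and *Rbm15b* above. *Virma* (ENSMUSG00000040720, chromosome 4, 11485958 to 11551143), the large scaffold of the complex, had 568 and 587 UMIs and a ratio of -0.09 (-0.26 to 0.08). *Zc3h13* (ENSMUSG00000022000, chromosome 14, 75284306 to 75344433), whose product keeps the complex in the nucleus, had 1154 and 1014 UMIs, a CPM of 152 and 121, and a ratio of -0.32 (-0.45 to -0.20). In non-adipocyte nuclei *Virma* stood at 0.44 (0.17 to 0.70) on a CPM of 59.5 and 80.5, or at 0.09 with classes set from each nucleus alone, and *Zc3h13* at 0.10 (-0.10 to 0.30) on a CPM of 114 and 122.

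*Cbll1* (ENSMUSG00000020659, chromosome 12, 31484829 to 31500676) encodes HAKAI, a RING-finger protein of the complex. It had 130 and 164 UMIs in adipocyte-like nuclei and a ratio of 0.20 (-0.14 to 0.54). *Rbm15* (ENSMUSG00000048109, chromosome 3, 107305511 to 107334460) and *Rbm15b* (ENSMUSG00000074102, chromosome 9, 106880928 to 106887075) encode paralogous RNA-binding proteins that bring the complex to its targets. The paralogs had different ratios. *Rbm15* had 590 and 678 UMIs, a CPM of 77.6 and 81.2, and a ratio of 0.07 (-0.10 to 0.23), while *Rbm15b* had 27 and 73 UMIs, a CPM of 3.55 and 8.74, and a ratio of 1.30 (0.64 to 1.99).

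*Rbm15b* also lay above 0 in non-adipocyte nuclei, with 13 and 52 UMIs and a ratio of 1.11 (0.21 to 2.11). Its CPM was higher in the library labelled *Wtap*-BKO in each of the 6 classes, from 3.11 to 7.13 in the control library and from 7.32 to 11.3 in the other. Outside adipocyte-like nuclei each class held at most 17 UMIs of it per library, and the 5 intervals covered 0. The control library held only 1 UMI of it in each of macrophage-, T-cell- and fibroblast-like nuclei, and pericyte-like nuclei held 2 and 2. Unnamed nuclei went the other way, with 6 and 3 UMIs and a CPM of 15.7 and 7.19. *Rbm15b* overlaps *Dcaf1*, a gene of a ubiquitin ligase receptor, which had 427 and 580 UMIs in adipocyte-like nuclei. The *Dcaf1* ratio was 0.31 (0.12 to 0.49) there and 0.04 (-0.26 to 0.35) in non-adipocyte nuclei, both smaller than that of *Rbm15b*.

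The erasers followed. *Alkbh5* (ENSMUSG00000042650, chromosome 11, 60537683 to 60558512) had 227 and 251 UMIs in adipocyte-like nuclei, a CPM of 29.9 and 30.1 and a ratio of 0.01 (-0.26 to 0.27). In non-adipocyte nuclei it had 85 and 198 UMIs at 0.33 (-0.05 to 0.71). *Fto* (ENSMUSG00000055932, chromosome 8, 91313367 to 91668433) had 1784 and 1472 UMIs in adipocyte-like nuclei, a CPM of 235 and 176, and a ratio of -0.41 (-0.51 to -0.31), or -0.14 (-0.30 to 0.02) without nuclei of over 5% mitochondrial UMIs. It went the other way in non-adipocyte nuclei, with 504 and 1215 UMIs, a CPM of 181 and 235, and a ratio of 0.38 (0.23 to 0.53), which turned to -0.085 with classes set from each nucleus alone.

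Class by class, the *Fto* values in non-adipocyte nuclei were not alike. Fibroblast-like nuclei had 76 and 371 UMIs, a CPM of 248 and 369, and a ratio of 0.57 (0.21 to 0.95). Endothelial-like nuclei had 220 and 185 UMIs, a CPM of 139 and 182, and a ratio of 0.39 (0.10 to 0.68). In macrophage-, T-cell- and pericyte-like nuclei the ratio was -0.10, 0.10 and -0.14, and the 3 intervals covered 0. Only fibroblast-like over pericyte-like nuclei in the library labelled *Wtap*-BKO differed beyond counting intervals among neighbours in the order of *Fto* levels, at 0.66 (0.27 to 1.06). Beside these values, fibroblast markers summed to 4386 and 7692 CPM in fibroblast-like nuclei, with UMIs of all 10, and the median adipocyte marker stood at 37.0% and 25.6% of its adipocyte-like level. In endothelial-like nuclei the endothelial markers summed to 3201 and 4971 CPM, the fibroblast markers to 188 and 761 and the macrophage markers to 144 and 448, again with UMIs of every marker, and the median adipocyte marker stood at 47.6% and 36.1%. Endothelial-like nuclei also came mostly from different clusters in the libraries (852 and 282 nuclei of cluster 4, 358 and 570 of cluster 5). Mitochondrially encoded genes took 17.0% and 12.01% of the UMIs in endothelial-like nuclei, 4.55% and 5.89% in fibroblast-like nuclei and 4.48% and 11.7% in adipocyte-like nuclei. The part of markers, clusters and mitochondrial UMIs in the *Fto* values of endothelial- and fibroblast-like nuclei was not tested.

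The members were also summed by role. In adipocyte-like nuclei the catalytic pair stood at -0.25 (-0.57 to 0.07), the 6 regulatory genes at -0.10 (-0.18 to -0.03) and the erasers at -0.36 (-0.45 to -0.26). Without *Zc3h13*, left out after its value was seen, the other 5 regulatory genes stood at 0.03 (-0.07 to 0.12) on 1699 and 1905 UMIs. With mitochondrial UMIs left out of the denominator, *Virma* rose from -0.09 to 0.03 and *Zc3h13* from -0.32 to -0.21. The sums were not taken under that setting, so the small value of the 6 regulatory genes depends on the denominator used. Of the 2011 and 1723 eraser UMIs, 1784 and 1472 were of *Fto*, and *Alkbh5* stood at 0.01. The *Fto* intervals covered 0 within each stratum of mitochondrial UMIs. Within the adipocyte-like clusters described below, they lay below 0 in clusters 0, 1, 2 and 11 and covered 0 in cluster 9. In non-adipocyte nuclei the same sums stood at 0.54 (0.06 to 1.04), 0.21 (0.09 to 0.33) and 0.37 (0.23 to 0.51), and the regulatory genes without *Zc3h13* at 0.27 (0.12 to 0.42). Of the 589 and 1413 eraser UMIs there, 504 and 1215 were of *Fto*, which turned to -0.085 with classes set from each nucleus alone, and *Mettl14* of the catalytic pair stood at 0.24 under that setting. The non-adipocyte sums hold a different mix of classes, since macrophage- and T-cell-like nuclei numbered 292 and 118 in the control library and 1117 and 742 in the library labelled *Wtap*-BKO. By class, the sum of all 10 genes stood at -0.20 (-0.26 to -0.15) in adipocyte-like, 0.33 (0.17 to 0.49) in endothelial-like and 0.31 (0.08 to 0.54) in fibroblast-like nuclei. It stood at -0.11, -0.05 and -0.14 in macrophage-, T-cell- and pericyte-like nuclei, where the intervals covered 0. Of the 5038 and 4803 UMIs in the adipocyte-like sum, 1784 and 1472 were of *Fto* and 1154 and 1014 of *Zc3h13*. Of the other members, *Mettl3* lay below 0 on 83 and 64 UMIs, *Rbm15b* lay above 0, and the remaining intervals covered 0. The adipocyte-like sum thus does not stand for a lower level of every member, and it was not taken without *Fto* and *Zc3h13*.

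**Figure D2:**
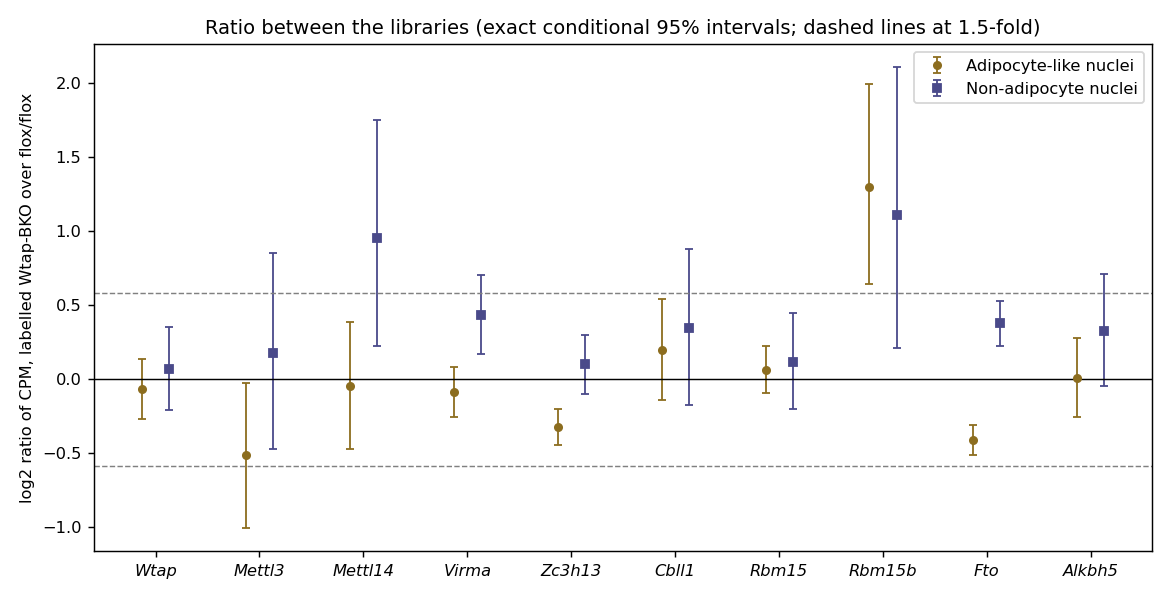
Log2 ratio of CPM between the libraries (labelled *Wtap*-BKO over control) for the 10 genes, in adipocyte-like and in non-adipocyte nuclei. Points are ratios of summed UMIs, bars are exact conditional 95% intervals and dashed lines mark 1.5-fold. In adipocyte-like nuclei only the point of *Rbm15b*, at 1.30, lies past a dashed line, and *Fto* lies at -0.41 in adipocyte-like and 0.38 in non-adipocyte nuclei.

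Most members were within 1.5-fold between the libraries. A gene was counted as past 1.5-fold where both libraries together held at least 20 UMIs of it in the class. In adipocyte-like nuclei, 1 of 10 members was past 1.5-fold higher (*Rbm15b*) and 0 were lower, against 25.2% higher and 12.2% lower among all 14088 genes counted. The members had a median of -0.05 with 4 above and 6 below 0, and the median of all genes was 0.07. *Wtap*, *Mettl3*, *Mettl14*, *Virma*, *Rbm15* and *Alkbh5* changed sign under at least 1 other setting. In non-adipocyte nuclei, 2 of 10 were past 1.5-fold higher (*Mettl14* and *Rbm15b*) and 0 lower, against 35.1% and 8.66% of all genes. All 10 lay above 0 there, with a median of 0.33, while the median of all genes was 0.31. Several of these signs turned under other settings. Without nuclei of over 5% mitochondrial UMIs *Rbm15* stood at -0.57, *Zc3h13* at -0.30 and *Wtap* at -0.09, and with TMM scaling *Wtap*, *Zc3h13*, *Rbm15* and *Mettl3* stood at -0.19, -0.16, -0.14 and -0.08. With classes set from each nucleus alone *Mettl3* stood at -0.18, *Zc3h13* at -0.09 and *Rbm15* at -0.05, beside *Fto*.

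In the single classes, the members past 1.5-fold rested on few UMIs. Of 9 members counted in endothelial-like nuclei, 0 were past it (39.2% of all genes were, either way). In macrophage-like nuclei, 2 of 9 were, *Cbll1* at 0.66 and *Alkbh5* at 1.11 (41.9% of all genes). In T-cell-like nuclei, 3 of 8 were (49.7%), namely *Mettl14* at 1.46 and *Cbll1* at 1.80, each on 1 UMI in the control library, and *Rbm15* at -1.04 (-1.85 to -0.17) on 17 and 57 UMIs, a CPM of 121 and 58.8. Fibroblast-like nuclei had 0 of 6 (37.4%) and pericyte-like nuclei 3 of 6 (33.2%), which were *Alkbh5* at 0.66, *Wtap* at -0.70 and *Rbm15* at -1.33. Among these, *Rbm15* in T-cell-like nuclei was the only member with an interval off 0.

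To see which members marked a class, each class was then set over adipocyte-like nuclei within its own library. Over the non-adipocyte nuclei together, *Rbm15* had the lowest values of the 10. It was lower in non-adipocyte than in adipocyte-like nuclei in both libraries, at -0.86 (-1.16 to -0.58) and -0.81 (-1.03 to -0.60), on a CPM of 42.7 and 46.3 against 77.6 and 81.2. It was the 1 member of 10 past 1.5-fold lower in both, and 0 were past it higher, against 13.4% and 21.2% of the 13027 genes counted. This call did not hold under every setting. Without nuclei of over 5% mitochondrial UMIs the values were -0.50 and -0.95, without those of over 10% -0.54 and -0.85, and with classes set from each nucleus alone -0.17 and -0.45.

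By class, the *Rbm15* values were -1.11 and -0.75 in endothelial-like, -0.73 and -0.84 in macrophage-like, -1.25 and -0.96 in fibroblast-like and -0.76 and -2.15 in pericyte-like nuclei, with intervals below 0 in both libraries in these 4 classes. T-cell-like nuclei lay at 0.64 (-0.15 to 1.33) in the control library, on 17 UMIs and with an interval that covered 0. In the library labelled *Wtap*-BKO they lay below 0 like the other classes, at -0.47 (-0.88 to -0.07). Counting members past 1.5-fold the same way in both libraries gave 1 of 10 in endothelial-like (34.1% of all genes), 1 of 10 in macrophage-like (33.2%) and 1 of 10 in pericyte-like nuclei (31.1%), in each case *Rbm15*. It gave 0 of 10 in T-cell-like nuclei (25.7%) and 2 of 10 in fibroblast-like nuclei (32.9%), *Rbm15* and *Cbll1*. *Cbll1* stood at -0.81 (-3.10 to 0.77) and -1.13 (-2.29 to -0.17) there, on 3 and 9 UMIs.

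*Fto* had no such steady order. Over adipocyte-like nuclei, non-adipocyte nuclei stood at -0.38 (-0.52 to -0.23) in the control library and at 0.41 (0.30 to 0.52) in the library labelled *Wtap*-BKO. Fibroblast-like nuclei stood at 0.08 (-0.27 to 0.41) and 1.07 (0.90 to 1.23). Adipocyte-like nuclei were therefore the third of 6 classes by *Fto* level in the control library and the last of 6 in the other, though it did not differ from the neighbouring classes beyond counting intervals. *Wtap* lay at 0.20 (-0.07 to 0.47) and 0.34 (0.12 to 0.55), and *Virma* at -0.33 (-0.59 to -0.08) and 0.20 (0.01 to 0.38).

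Detection was compared once each nucleus had been thinned to 1000 UMIs, which left 3288 and 3838 adipocyte-like nuclei and dropped 3464 and 1102 shallower ones. *Wtap* was detected in 5.08% (exact binomial 95% interval 4.35 to 5.89) and 4.77% (4.12 to 5.49) of them, and in 5.45% and 7.65% without thinning. *Fto* was detected in 20.9% (19.5 to 22.3) and 15.2% (14.0 to 16.3), and in 21.4% and 23.1% without thinning, so the order of the libraries turned when the depth was matched. *Zc3h13* was detected in 14.3% and 11.5% after thinning, and *Rbm15b* in 0.487% and 1.07%. *Mettl3* was found in 1.28% (0.922 to 1.72) and 0.703% (0.464 to 1.02), and *Rbm15* in 7.69% and 7.53%.

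**Figure D3:**
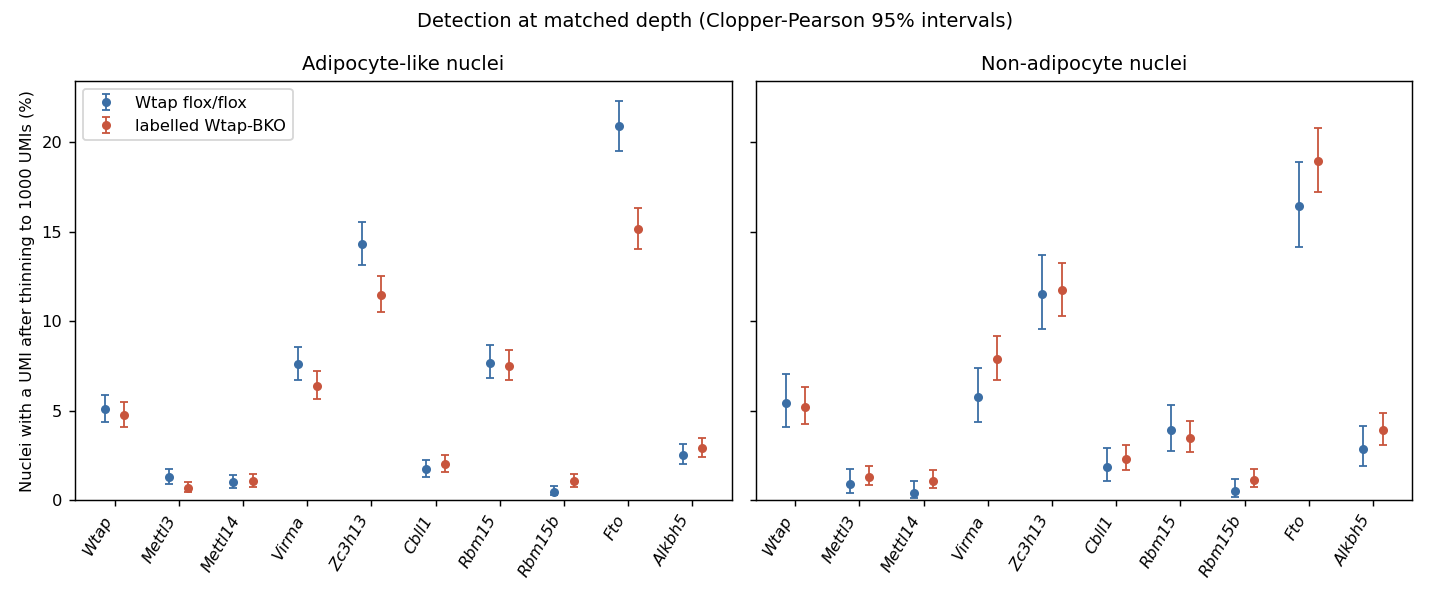
Share of nuclei with at least 1 UMI of each gene, in percent, after thinning to 1000 UMIs per nucleus, in adipocyte-like and in non-adipocyte nuclei of both libraries. Bars around the points are exact binomial 95% intervals. The intervals of *Fto* (20.9% and 15.2%) and *Zc3h13* (14.3% and 11.5%) do not overlap between the libraries in adipocyte-like nuclei, while those of *Wtap* overlap in both panels.

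Most members were detected in few nuclei. At 1000 UMIs, 48.8% (47.1 to 50.6) and 42.5% (40.9 to 44.05) of adipocyte-like nuclei held a UMI of at least 1 member, 11.8% and 9.22% of at least 2, and 1.86% and 1.33% of at least 3. In non-adipocyte nuclei, 973 and 1918 of which were deep enough, 39.1% (36.0 to 42.2) and 45.5% (43.3 to 47.8) held at least 1 member. *Wtap* was found there in 5.45% (4.11 to 7.06) and 5.21% (4.26 to 6.31) and *Rbm15* in 3.91% and 3.49%, which is below its adipocyte-like share in both libraries. *Fto* was detected in 26.9% (19.2 to 35.8) and 27.9% (23.4 to 32.6) of fibroblast-like nuclei, but this depended on the depth. At 500 UMIs, where no nucleus was dropped, the shares were 8.86% (5.76 to 12.9) and 16.4% (13.2 to 20.003), which did not overlap, and in the control library pericyte-like nuclei had 14.2%, macrophage-like 11.3% and adipocyte-like 10.5%. Where T-cell-like nuclei had no thinned UMI of *Mettl14*, *Cbll1* or *Rbm15b* in the control library, only 58 nuclei were deep enough, and the interval reached 6.16%.

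The 5 adipocyte-like clusters were then described separately for *Wtap*. Cluster 2 was led among others by *Lncbate10*, *Foxp2*, *Gmpr* and *Lgr6*, cluster 9 by *Slc7a10*, *Cyp2e1* and *Trhde*, and cluster 11 by the interferon-responsive *Gbp6*, *Iigp1* and *Ifit1*. Mitochondrially encoded genes led cluster 1, and cluster 0 was the largest, with 3532 and 1914 nuclei. Writers, erasers and readers had been left out of the genes used to cluster.

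*Wtap* was present in all 5. In cluster 0 it had 167 and 100 UMIs, a CPM of 53.2 and 41.3, and a ratio of -0.36 (-0.74 to 0.002). In cluster 1 it had 77 and 116 UMIs, a CPM of 48.0 and 44.6, and a ratio of -0.11 (-0.53 to 0.33). In cluster 2 it had 122 and 96 UMIs, a CPM of 50.3 and 61.6, and a ratio of 0.29 (-0.11 to 0.69). The smaller clusters were sparser, with 13 and 58 UMIs in cluster 9 (0.03, -0.86 to 1.02) and 5 and 33 UMIs in cluster 11 (0.81, -0.55 to 2.53). All 5 intervals covered 0, that of cluster 0 by little.

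Within a library, *Wtap* in cluster 2 lay above the other adipocyte-like nuclei in the library labelled *Wtap*-BKO, at 0.45 (0.10 to 0.78), and level with them in the control library (-0.33 to 0.30). For the other 4 clusters, the interval of this comparison covered 0 in both libraries. At 1000 UMIs, *Wtap* was detected in 4.89% and 7.02% of cluster 2 nuclei and in 5.85% and 4.30% of cluster 0 nuclei. *Ucp1*, whose locus drives the Cre, had a CPM of 148 and 309 in cluster 0, 189 and 237 in cluster 1, 135 and 372 in cluster 2, 106 and 50.4 in cluster 9 and 155 and 239 in cluster 11. It also had 194 and 104 in endothelial-like and 301 and 74.3 in unnamed nuclei, so that in the control library its level did not mark the adipocyte-like clusters. In the library labelled *Wtap*-BKO cluster 2 had the highest *Ucp1* level of the 5 clusters, while its *Wtap* interval (49.9 to 75.2 CPM) overlapped those of clusters 1, 9 and 11 and, by little, of cluster 0 (33.6 to 50.3).

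**Figure D4:**
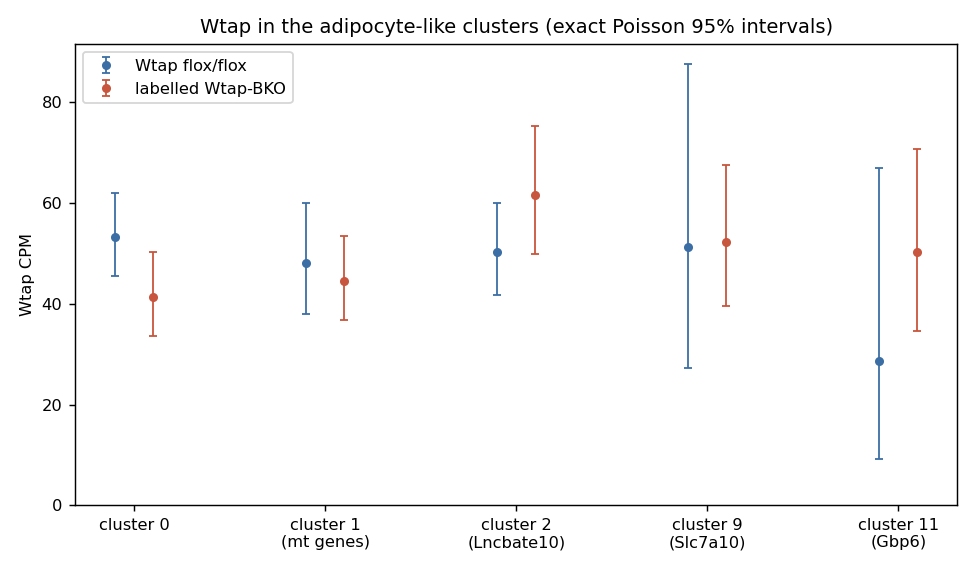
*Wtap* level in CPM (vertical axis) in the 5 adipocyte-like clusters (horizontal axis) of the control library and the library labelled *Wtap*-BKO. Points are the CPM of summed UMIs and bars are exact Poisson 95% intervals. The intervals of the libraries overlap in every cluster, and cluster 11 of the control library rests on 5 UMIs.

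*Fto* levels differed among these clusters beyond counting error. *Fto* was highest in cluster 11, at a CPM of 298 on 52 UMIs, and cluster 2, at 279, in the control library, and in cluster 9, at 244, and cluster 2, at 215, in the library labelled *Wtap*-BKO. Cluster 1 had 183 and 130. Between the libraries, the *Fto* ratio was -0.32 (-0.50 to -0.14) in cluster 0, -0.49 (-0.72 to -0.26) in cluster 1 and -0.38 (-0.57 to -0.18) in cluster 2. It was -0.09 (-0.49 to 0.32) in cluster 9 and -0.996 (-1.50 to -0.48) in cluster 11, on a CPM of 298 and 149. Cluster 9 lay above the other adipocyte-like nuclei in the library labelled *Wtap*-BKO, at 0.55 (0.36 to 0.75). On the log2 scale, the intervals against the other adipocyte-like nuclei ran from 0.24 to 0.52 and 0.18 to 0.54 for cluster 2, and from -0.63 to -0.26 and -0.78 to -0.42 for cluster 1, which was also the cluster led by mitochondrially encoded genes. *Mettl3* in cluster 1 had 17 and 11 UMIs and a ratio of -1.33 (-2.57 to -0.15), while it stood at 0.04 (-0.74 to 0.82) in cluster 0. *Rbm15b* stood at 0.99 (-0.008 to 2.04) in cluster 0, 1.76 (0.20 to 3.76) in cluster 1 and 1.45 (0.09 to 2.91) in cluster 2. It had 0 and 9 UMIs in cluster 9 and 0 and 5 UMIs in cluster 11, too few to give a direction.

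Because the libraries differed in mitochondrial UMIs, adipocyte-like nuclei were also compared within strata of them. Up to 5% mitochondrial UMIs there were 5189 and 1057 nuclei, between 5% and 10% there were 961 and 1452, and between 10% and 25% there were 545 and 2092. The 57 and 339 nuclei of over 25% held few UMIs. *Fto* stood at -0.14 (-0.30 to 0.02), 0.01 (-0.23 to 0.25) and 0.14 (-0.20 to 0.51) up to 25%, and at -0.64 (-1.53 to 0.36) on 13 and 52 UMIs above it, against -0.41 over all adipocyte-like nuclei. Its CPM in the 4 strata, from the lowest share of mitochondrial UMIs to the highest, was 252, 205, 131 and 135 in the control library and 229, 205, 145 and 87.1 in the library labelled *Wtap*-BKO. In all 4 the *Fto* interval covered 0, whereas within the adipocyte-like clusters it lay below 0 in clusters 0, 1, 2 and 11 and covered 0 in cluster 9.

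*Mettl3* stood at 0.07 (-0.71 to 0.80) in the lowest stratum, -0.54 (-1.49 to 0.46) on 16 and 26 UMIs in the next and -0.07 (-1.86 to 2.34) on 3 and 17 UMIs between 10% and 25%, and it had 0 UMIs in either library above 25%. *Zc3h13* kept a value of -0.40 (-0.62 to -0.19) in the lowest stratum but stood at 0.21 (-0.10 to 0.52) and 0.10 (-0.28 to 0.51) in the next 2, and at 0.30 (-0.93 to 1.82) above 25%. *Rbm15b* stood at 1.47 (0.50 to 2.42) on 22 and 19 UMIs, 1.64 (-0.10 to 4.02) on 3 and 22 UMIs and 1.13 (-0.87 to 4.25) on 2 and 26 UMIs in the 3 strata up to 25%, and only the first of these intervals lay off 0. Above 25% it had 0 and 6 UMIs, which give no direction, since the ratio is -1.64 with the 0 set to 3 UMIs. *Wtap* stood at 0.03, 0.47, -0.23 and -0.32, and the 4 intervals covered 0.

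**Figure D5:**
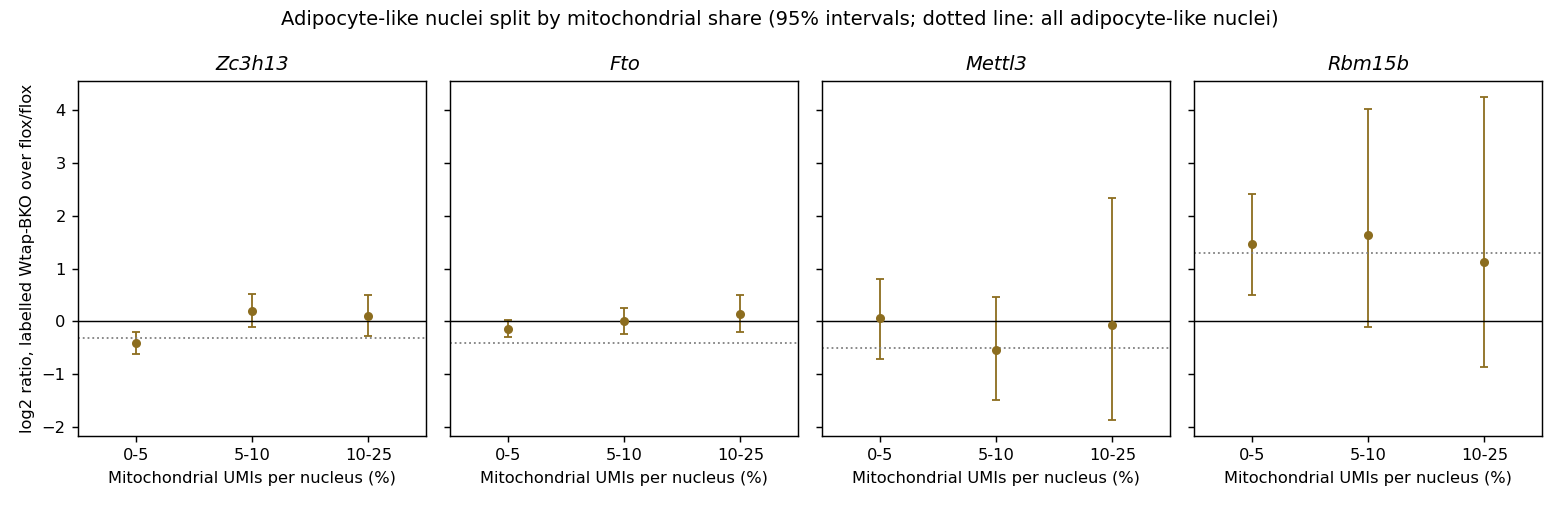
Log2 ratio between the libraries (labelled *Wtap*-BKO over control) in adipocyte-like nuclei for *Zc3h13*, *Fto*, *Mettl3* and *Rbm15b* (vertical axis) within 3 strata of the percentage of mitochondrial UMIs per nucleus, up to 25% (horizontal axis). The 57 and 339 nuclei of over 25% are not drawn. Bars are exact conditional 95% intervals and the dotted line is the ratio over all adipocyte-like nuclei. *Fto* moves from -0.41 over all nuclei to between -0.14 and 0.14 within the strata drawn, while the points of *Rbm15b* lie above 1 in each of them.

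Other genes of the pathway were counted in adipocyte-like nuclei by the same 1.5-fold rule, past which 25.2% of all genes were higher and 12.2% lower. Of 8 other methyltransferases and partners, 7 were counted and 1 was higher, *Trmt112*, the activator of several methyltransferases, at 1.25 (0.29 to 2.30) on 13 and 34 UMIs. *Mettl16*, which methylates U6 RNA and *Mat2a* mRNA, had a CPM of 26.4 and 29.7 (0.17, -0.11 to 0.44), and *Mat2a*, which makes the methyl donor S-adenosylmethionine, had 84.1 and 92.7 (0.14, -0.01 to 0.29). Of the 5 genes of methyl donor supply, 2 were lower, *Ahcy*, which clears the by-product of methylation, at -1.21 (-2.46 to -0.06) on 21 and 10 UMIs, and its relative *Ahcyl1* at -0.69 (-0.76 to -0.63) on a CPM of 586 and 362. Of 12 readers, proteins that bind m6A, 11 were counted and 2 were lower, *Ythdc1*, the nuclear reader, at -0.64 (-0.75 to -0.54) on a CPM of 235 and 151, and *Ythdc2*, a helicase, at -0.59 (-0.86 to -0.32) on 36.6 and 24.3. The medians of the 3 lists were -0.16, -0.43 and -0.01.

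The genes most like *Wtap* over the 12 sums of 6 classes in 2 libraries were *Zfp942* (Pearson r of 0.905), *Ankle2* (0.904) and *Nsa2* (0.860) among 6842 genes compared on log2(CPM + 1). Those most like *Fto* were *Tmem39a* (0.879), *Dapk1* (0.868) and *Raph1* (0.868). These are descriptions only. The 6 points of a library come from the same preparation and are not independent, and *Wtap* itself ranged only from a CPM of 32.9 to 85.6 over the 12 sums.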

How the data were processed

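The authors deposited raw counts of UMIs per gene and nucleus for 1 *Wtap* flox/flox and 1 *Wtap*-BKO library, made per the file headers with Cell Ranger 5.0.0. The submitters' processing notes name mm10. The annotation, strand setting and treatment of intronic reads are not given in the sources used here. Every nucleus had at least 500 UMIs, the minimum of the study's methods. Of the listed genes, 40 share a symbol with another. No member does.

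Nuclei were integrated and clustered with Seurat 5.3.0 in R 4.3.3 (2000 variable features without 35 m6A pathway genes, canonical correlation analysis, 20 PCs, resolution 0.5), which gave 14 clusters. To be named, a cluster had to hold 3 or more markers of a class, each on 10 UMIs or more and at 2 times the CPM of other nuclei or above. A remaining cluster was adipocyte-like if at least 50% of the 12 markers had 1.5 times the CPM of the named clusters. These thresholds, the members and the gene lists were chosen with earlier results of these data known. Scrublet (scanpy 1.11.5) called 3 and 0 nuclei as doublets, so it had not worked, and the 721 and 616 nuclei with the highest scores were removed only as an alternative.

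UMIs were summed per library and class. CPM has an exact Poisson interval, a ratio an exact conditional interval and a share a Clopper-Pearson interval, all at 95% (scipy 1.17.1, numpy 2.4.6). A library with 0 UMIs was set to 3 to give a ratio a value, while the interval used the counts themselves. TMM factors came from edgeR 4.0.16. With 1 library per genotype, no test was made. The named members are all 10, other pathway genes are named if past 1.5-fold in adipocyte-like nuclei (and *Mettl16* and *Mat2a*), and 3 genes each are named as most like *Wtap* and *Fto*. Positions are of the RefSeq gene table for GRCm38.p6, to which all 10 members matched. The ratio and its interval were tested on counts simulated with known ratios, and the thinning was checked on nuclei of the data. Integration, clustering and naming were not tested on simulated data.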

Additional observations from a re-analysis of the deposited data

Results flagged for a closer look

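The ratio of *Fto* between the libraries differed among classes of nuclei. In adipocyte-like nuclei the log2 ratio (labelled *Wtap*-BKO over control) was -0.41 (-0.51 to -0.31), while it was 0.39 (0.10 to 0.68) in endothelial-like and 0.57 (0.21 to 0.95) in fibroblast-like nuclei, so that the intervals lay on opposite sides of 0. The median ratio of all genes counted was 0.07 in adipocyte-like, 0.35 in endothelial-like and 0.09 in fibroblast-like nuclei. With 1 library per genotype the difference between classes was not tested. With classes set from each nucleus alone, the ratio over all non-adipocyte nuclei turned from 0.38 to -0.085. Within strata of mitochondrial UMIs the adipocyte-like value was -0.14 (-0.30 to 0.02) up to 5%, 0.01 (-0.23 to 0.25) between 5% and 10%, 0.14 (-0.20 to 0.51) between 10% and 25% and -0.64 (-1.53 to 0.36) among the 57 and 339 nuclei above that, and the 4 intervals covered 0. Within adipocyte-like clusters 0, 1, 2 and 11 it was -0.32, -0.49, -0.38 and -0.996, with intervals below 0. In cluster 9 it was -0.09 (-0.49 to 0.32). In the endothelial-like class, different clusters held most of the nuclei of each library, and fibroblast markers summed to 188 and 761 CPM. In the fibroblast-like class these markers summed to 4386 and 7692 CPM. Mitochondrially encoded genes took 17.0% and 12.01% of endothelial-like, 4.55% and 5.89% of fibroblast-like and 4.48% and 11.7% of adipocyte-like UMIs. The part of these differences in the result was not tested.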

How the results depend on the processing

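No paired analysis was possible because each genotype had 1 library. In adipocyte-like nuclei, the *Wtap* ratio of -0.07 ranged from -0.13 with TMM scaling to 0.20 without adipocyte-like clusters 0 and 1, an alternative chosen after seeing the data, and in non-adipocyte nuclei it ranged from -0.19 to 0.11. *Rbm15b* was the only member past 1.5-fold higher, and 0 were lower, under all 14 alternatives for these counts, with a ratio from 1.18 to 1.59. *Mettl3* in adipocyte-like nuclei reversed to 0.073 without nuclei of over 5% mitochondrial UMIs, and *Fto* in non-adipocyte nuclei reversed to -0.085 with classes set from each nucleus alone. *Fto* in adipocyte-like nuclei ranged from -0.48 to -0.14 and *Zc3h13* from -0.52 to -0.21. *Mettl14* in non-adipocyte nuclei ranged from 0.24 to 1.40. The count of 1 member lower in non-adipocyte nuclei in both libraries, *Rbm15*, became 0 without nuclei of over 5% or of over 10% mitochondrial UMIs and with classes from each nucleus alone, and the cause was not tested. TMM and median-of-ratios scaling were not run for that count. With mitochondrial UMIs left out of the denominator, all genes in adipocyte-like nuclei had a median of 0.19 in place of 0.07. The share of adipocyte-like nuclei with a *Wtap* UMI follows the depth by construction, at 2.56% and 2.53% for 500 UMIs, 9.89% and 9.26% for 2000 UMIs, and 7.65% without thinning in the library labelled *Wtap*-BKO. Depth limits the members with few UMIs, since *Mettl3* and *Rbm15b* had at most 22 UMIs per library in each class other than adipocyte-like.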
